A study of Mus musculus with 43 samples.

Results

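The 39 genes described here encode the enzymes of fatty acid and sterol synthesis together with regulators of both pathways. They were chosen by symbol from a fixed list, and all 39 occur among the 26264 genes of the count tables. The fatty acid arm holds 23 genes and the sterol arm 16.

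Lipogenesis builds fatty acids from cytosolic acetyl-CoA. Acly and Acss2 supply the acetyl-CoA, Acaca and Acacb carboxylate it to malonyl-CoA, and Fasn assembles the chain with NADPH that Me1 helps to supply. Elovl5 and Elovl6 lengthen the chain, Scd1 to Scd3, Fads1 and Fads2 desaturate it, and Gpam, Agpat2, Lpin1, Dgat1 and Dgat2 esterify it to triglyceride, while Pnpla3 encodes a lipid droplet lipase and transacylase. Srebf1 and Mlxipl encode the sterol- and insulin-sensitive factor SREBP1 and the glucose-sensitive factor ChREBP, and Mid1ip1 and Thrsp encode related proteins that act on acetyl-CoA carboxylase. The sterol arm runs through the mevalonate pathway (Hmgcs1, Mvk, Mvd, Idi1, Fdps) to squalene (Fdft1, Sqle) and cholesterol (Lss, Cyp51, Msmo1, Nsdhl, Sc5d, Dhcr7). Srebf2 encodes its main transcriptional activator, Insig1 a protein that holds that activator in the endoplasmic reticulum, and Stard4 a sterol carrier. Brown and beige adipocytes run lipogenesis and fat oxidation side by side, and RUNX1 and RUNX2 are runt-domain transcription factors known best from blood and bone.

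The series measured polyadenylated RNA in 43 libraries of 15 groups, deposited as 6 tables of read counts per gene. In cultures of a mouse cell line labelled BAT, differentiated into mature brown adipocytes, 3 libraries overexpressed Runx1, 3 overexpressed Runx2 and 3 wild-type libraries labelled OEV were the control. In a second set, 3 libraries each were knockouts of Runx1, of Runx2 and of both genes, against 3 wild-type knockout controls. A further set held 2 libraries with a Runx2 lacking its IDR (a name the labels leave unexpanded) and 2 with full-length Runx2. Inguinal white adipose tissue (iWAT) was compared in 3 tables with 3 libraries a group: Adipoq-cre Runx1 knockout against Runx1 flox, Adipoq-cre Runx2 knockout against Runx2 flox, and a Runx1 knockout against wild type, both labelled HFD, for which the labels name no Cre. Adipoq drives Cre in adipocytes, so the other cells of the fat pad keep both genes, and no age or sex is given for the mice. The series concerns deletion of Runx1 or Runx2 in fat cells and the formation of beige fat. The design text has the genes overexpressed or deleted in brown preadipocytes before differentiation. The labels do not say whether replicates are separate cultures or animals, so p-values measure the spread between libraries, which may be technical.

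Libraries held 28.1 to 52.2 M assigned counts. Runx1 stood at 66.9 to 85.9 CPM (read counts scaled to library size) in Runx1-overexpressing cultures, against 4.26 to 6.70 CPM in OEV controls, and Runx2 at 281 to 332 CPM in Runx2-overexpressing cultures, against 7.74 to 9.29 CPM in OEV controls. Each also rose with the other, to 30.3 ± 2.03 CPM of Runx1 with Runx2 and 16.8 ± 1.37 CPM of Runx2 with Runx1 (SD, n = 3 each). In the knockout cultures neither transcript was called lower: Runx1 had 5.43 ± 1.13 CPM in Runx1 knockouts, against 5.24 ± 2.62 CPM in controls, and Runx2 had 7.61 ± 0.956 CPM in Runx2 knockouts, against 7.71 ± 1.28 CPM in controls (SD, n = 3 each). In double knockouts Runx1 had 4.72 ± 1.55 CPM and Runx2 7.55 ± 1.39 CPM (SD, n = 3). In iWAT the knocked-out gene was lower by 0.62 (Runx1), 1.19 (Runx2) and 0.30 (Runx1, HFD) on the log2 scale without passing the test. The gene not knocked out also moved without passing. Runx2 changed by -0.58 in Runx1 knockouts, Runx1 by -1.28 in Runx2 knockouts and Runx2 by 0.53 in HFD Runx1 knockouts. All knockout groups, in culture and in iWAT, are therefore named by their labels alone, and every direction given for them is that of libraries so labelled. With the IDR deletion Runx2 had 115 to 143 CPM, against 293 to 294 CPM with full-length Runx2; reads of the deleted stretch are missing from the first by construction. Adipoq, the adipocyte hormone adiponectin, was abundant in all 43 libraries at 804 to 4585 CPM. Several libraries stood apart by transcripts of other tissues. The summed CPM of 9 cardiac muscle genes reached 1850 in Runx1-overexpressing library 3, 127 in OEV library 1 and 493 in OEV library 2, against 1.38 to 2.48 in the other overexpression libraries. The sum of 9 skeletal muscle genes reached 16667 and 7707 in Runx1 knockout iWAT libraries 2 and 3, 7058 in Runx1 flox library 2 and 7299 in Runx2 flox library 3.

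The 5′ ends of 4 members are shown as examples of both arms: Elovl6 and Acacb, which moved far in opposite directions in overexpressing cultures, Fasn, the synthase itself, and Hmgcs1, which makes HMG-CoA for the sterol arm and was called in no comparison with a control. Each runs from 250 bases before to 50 bases after the annotated start, from RefSeq's table of mouse promoters (build GRCm38.p6), on the gene's own strand. Capitals mark letters that match 4 searched motifs on either strand: TGTGGT or TGCGGT (RUNX), CCAAT (the CCAAT box), TCACNCCAC (a sterol regulatory element) and CACGTG (an E-box). Elovl6 lies at chr3:129532136-129532435 on the plus strand, Acacb at chr5:114165268-114165567 on the plus strand, Fasn at chr11:120824498-120824797 on the minus strand and Hmgcs1 at chr13:119690101-119690400 on the plus strand.
Elovl6: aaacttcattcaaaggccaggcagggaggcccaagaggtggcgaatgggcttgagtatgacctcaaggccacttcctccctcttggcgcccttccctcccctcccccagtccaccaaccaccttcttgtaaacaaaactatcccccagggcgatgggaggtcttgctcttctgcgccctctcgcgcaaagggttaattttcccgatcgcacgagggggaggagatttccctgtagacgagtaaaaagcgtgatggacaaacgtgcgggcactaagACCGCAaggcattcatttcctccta
Acacb: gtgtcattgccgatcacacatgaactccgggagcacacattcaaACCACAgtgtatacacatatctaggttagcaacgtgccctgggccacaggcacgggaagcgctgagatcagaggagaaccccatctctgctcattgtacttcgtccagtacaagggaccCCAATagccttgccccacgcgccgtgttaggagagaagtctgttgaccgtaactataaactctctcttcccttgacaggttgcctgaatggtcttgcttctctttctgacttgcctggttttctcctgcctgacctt
Fasn: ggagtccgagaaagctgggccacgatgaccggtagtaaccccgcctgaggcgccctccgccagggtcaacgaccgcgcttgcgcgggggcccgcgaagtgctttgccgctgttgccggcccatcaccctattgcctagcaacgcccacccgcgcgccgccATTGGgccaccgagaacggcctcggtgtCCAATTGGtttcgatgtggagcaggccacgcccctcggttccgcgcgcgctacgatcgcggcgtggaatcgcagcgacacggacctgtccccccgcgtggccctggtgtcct
Hmgcs1: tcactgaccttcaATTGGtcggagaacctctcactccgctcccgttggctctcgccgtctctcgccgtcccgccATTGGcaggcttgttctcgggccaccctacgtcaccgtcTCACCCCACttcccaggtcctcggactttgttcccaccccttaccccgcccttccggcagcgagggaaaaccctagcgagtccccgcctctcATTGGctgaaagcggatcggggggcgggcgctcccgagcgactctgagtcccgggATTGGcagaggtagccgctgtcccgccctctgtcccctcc

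The Elovl6 window held 1 RUNX match and no CCAAT box, the Acacb window 1 of each, the Fasn window 3 CCAAT boxes, of which 2 overlap head to head, and the Hmgcs1 window 4 CCAAT boxes and 1 sterol regulatory element. The table held promoters of 30 of the 39 members, 37 windows in all; it has no entry for Stard4, Sqle, Fdps, Fdft1, Scd2, Scd1, Fads1, Dgat2 or Dgat1. The CCAAT box occurred in 24 of the 37 member windows (64.9%), against 37.4% of all 32851 windows in the table. It was found for 12 of 12 sterol genes and 11 of 18 fatty acid genes, against 41.1% of all 27025 genes with a window. RUNX letters occurred in 10 of the 37 (27.0%), against 22.4% of all windows, and belonged to 9 of 18 fatty acid genes and, in the sterol arm, to Lss among 12. The sterol regulatory element occurred in 2 of the 37 (5.41%, Mlxipl and Hmgcs1), against 1.24%, and the E-box in 5 of the 37 (13.5%), against 7.15%. No searched motif contains another, but neighbouring matches can share letters. These matches describe the letters only.

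Across the 9 comparisons with a control, 32 of the 39 members were called in at least 1, at an edgeR quasi-likelihood adjusted p under 0.05 over all genes tested. The other 7 (Acaca, Srebf2, Hmgcs1, Sqle, Idi1, Sc5d and Stard4) were called in none, and all but Acaca belong to the sterol arm. Of all genes tested, 54% were called with Runx1 overexpression and 60.9% with Runx2 overexpression. The share of all genes called in at least 1 of the 9 comparisons was not counted. Elovl6, the elongase that turns palmitate to stearate, was called higher in 4 comparisons and lower in none. Fasn and Fdps were each called higher in 3 and lower in none, and Lpin1, the phosphatidate phosphatase, was called lower in 3 and higher in none. Scd1, Elovl5, Fads1 and Insig1 were each called lower in 2 and higher in none. Acacb, Scd2, Scd3, Dgat2 and Lss were each called lower in 2 and higher in 1, Gpam lower in 3 and higher in 1, and Acss2 lower in 2 and higher in 2. The 2 overexpression comparisons share their OEV controls and the 3 knockout cultures share theirs, so their values stand side by side below and are not counted as independent. In bulk samples, fewer cells of a type and less RNA per cell cannot be told apart.

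**Figure D1:**
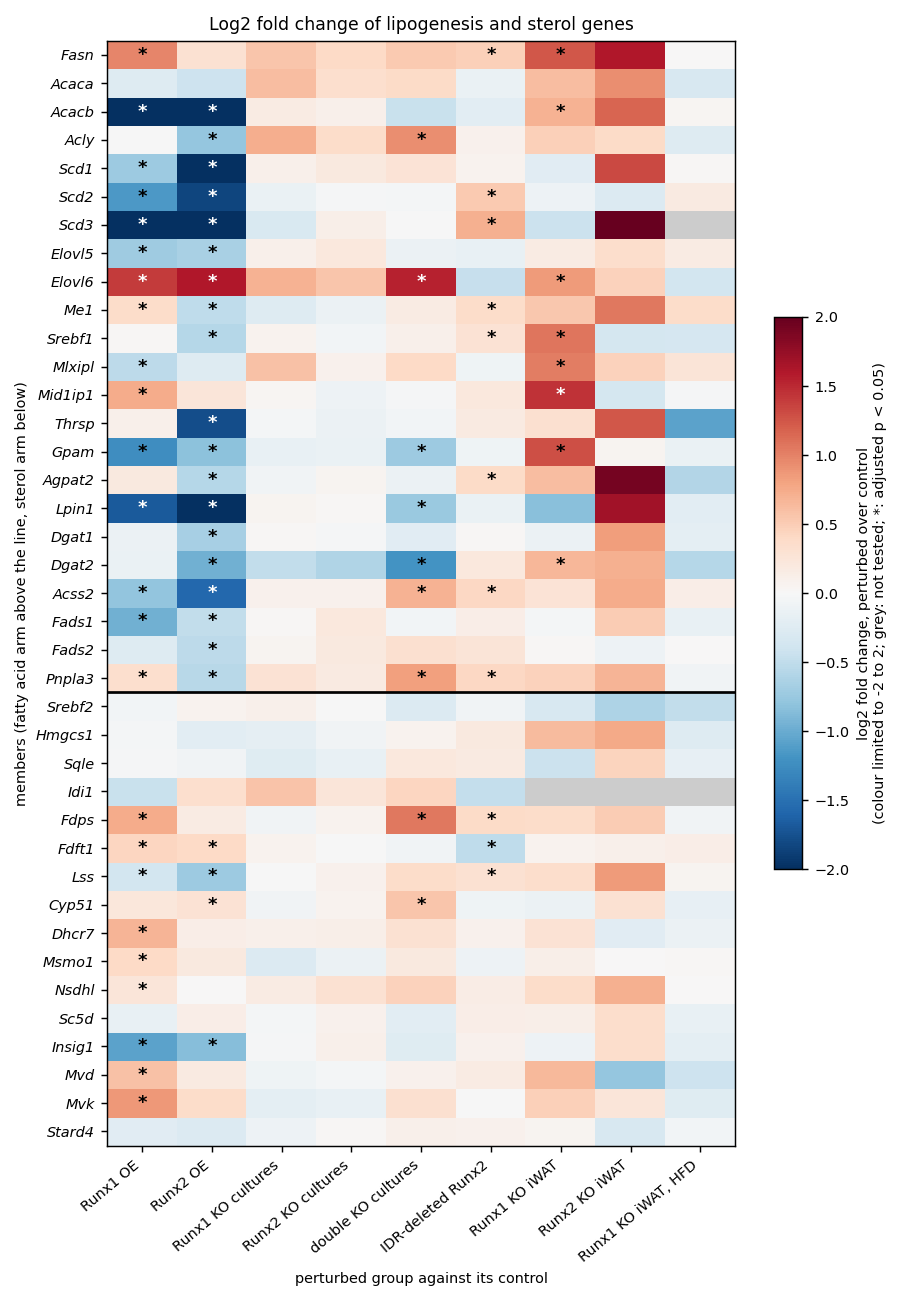
Log2 fold change of each of the 39 members (rows, fatty acid arm above the line and sterol arm below) in the 9 comparisons of a perturbed group with its control (columns). Red is higher and blue lower in the perturbed group, colour stops at 2 in either direction, grey marks a gene not tested, and an asterisk marks an edgeR adjusted p under 0.05; most asterisks stand in the 2 overexpression columns, and the single-knockout culture, Runx2 knockout iWAT and HFD columns hold none.

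Overexpression of Runx1 divided the fatty acid arm. Of 23 members 5 rose (Elovl6, Mid1ip1, Fasn, Me1 and Pnpla3) and 10 fell, against 28.2% and 25.8% of all 14661 genes tested (54% in either direction). With Runx2, 1 member rose (Elovl6) and 18 fell, against 31.3% and 29.6% of all genes (60.9% in either direction). The median log2 change of the arm was -0.25 with Runx1, where that of all genes was 0.06, and -0.65 with Runx2, where that of all genes was 0.03.

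The synthase and the elongase stood on the rising side. Fasn had 3572, 3749 and 4952 CPM in Runx1-overexpressing cultures and 2516, 2563 and 2614 CPM in Runx2-overexpressing cultures, against 2502, 1391 and 2311 CPM in OEV controls. All 6 overexpressing libraries lay above the 3 controls, but the lowest Runx2 library exceeded the highest control by little. The change was 0.98 ± 0.19 (log2, SE; edgeR adjusted p = 0.0013) with Runx1 and 0.31 ± 0.19 (adjusted p = 0.18) with Runx2. Elovl6 had 42.3, 42.1 and 52.1 CPM with Runx1 and 50.2, 52.1 and 55.5 CPM with Runx2, against 16.3, 14 and 21.6 CPM in OEV controls. It was thus 2.63-fold higher with Runx1 (log2 1.39 ± 0.15, adjusted p = 2e-05) and 3.04-fold higher with Runx2 (1.60 ± 0.15, adjusted p = 3.9e-06). Mid1ip1 rose with Runx1, to 201 ± 25.3 CPM, against 121 ± 13 CPM in OEV controls (SD, n = 3 each; edgeR adjusted p = 0.00049). Me1 rose by 0.37 ± 0.12 (adjusted p = 0.021) and Pnpla3 by 0.33 ± 0.12 (adjusted p = 0.037) with Runx1; both fell with Runx2, Me1 by 0.51 and Pnpla3 by 0.55 on the log2 scale.

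The second acetyl-CoA carboxylase gene, the 3 Scd genes, Fads1, Gpam and Lpin1 fell with both factors, and Fads2, Agpat2, Dgat1 and Dgat2 were called lower with Runx2 but not with Runx1. Acacb, whose malonyl-CoA at mitochondria restrains fat oxidation, had 35.9, 33.2 and 51.1 CPM with Runx1 and 27.7, 26.3 and 32.6 CPM with Runx2, against 487, 471 and 392 CPM in OEV controls. No overexpressing library came near the controls: Acacb was 11.2-fold lower with Runx1 (log2 -3.49 ± 0.17, edgeR adjusted p = 5.5e-08) and 15.6-fold lower with Runx2 (-3.96 ± 0.18, adjusted p = 9.2e-09). The cytosolic isoform gene Acaca was not called in either. Scd3 had 18.2, 12.6 and 20.3 CPM with Runx1 and 2.48, 1.83 and 2.33 CPM with Runx2, against 130, 160 and 178 CPM in OEV controls. The 3 groups did not overlap, and Scd3 was 70.3-fold lower with Runx2 (log2 -6.14 ± 0.22, adjusted p = 2.2e-09) and lower by 3.20 ± 0.18 on the log2 scale with Runx1 (adjusted p = 1.6e-07). Scd1, the main adipose desaturase, had 16893, 18740 and 23396 CPM with Runx1 and 6907, 7247 and 8219 CPM with Runx2, against 33135, 28093 and 36930 CPM in OEV controls. It fell by 0.73 ± 0.14 with Runx1 (adjusted p = 0.0011) and was 4.39-fold lower with Runx2 (log2 -2.13 ± 0.15, adjusted p = 2.5e-07). Scd2 fell by 1.15 ± 0.11 with Runx1 and by 1.83 ± 0.11 with Runx2 (adjusted p = 7e-06 and 1.1e-07). The 3 Scd genes are close paralogs whose reads the counting could divide among them; Scd3 took 0.057% to 0.091% of their summed counts with Runx1 and 0.020% to 0.028% with Runx2, against 0.321% to 0.457% in OEV controls.

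Lpin1 had 219, 234 and 311 CPM with Runx1 and 158, 165 and 177 CPM with Runx2, against 859, 823 and 774 CPM in OEV controls. It fell by 1.68 ± 0.13 with Runx1 (edgeR adjusted p = 1.1e-06) and by 2.30 ± 0.13 with Runx2 (adjusted p = 5.7e-08), with every overexpressing library below every control. Gpam, the first acyltransferase of triglyceride synthesis, fell by 1.24 ± 0.15 with Runx1 (adjusted p = 3.3e-05) and by 0.82 ± 0.14 with Runx2 (adjusted p = 0.00044). Fads1 fell by 0.96 ± 0.10 with Runx1 (adjusted p = 1.1e-05). Elovl5, Acss2 and Mlxipl were the other members called lower with Runx1, Mlxipl at 65.9, 74 and 81.7 CPM, against 97.6, 123 and 97.3 CPM in OEV controls (log2 -0.52 ± 0.11, adjusted p = 0.0023). With Runx2, Mlxipl missed the threshold at -0.25 ± 0.11 (adjusted p = 0.07). Thrsp, a lipogenic marker of adipose and liver, had 534, 607 and 490 CPM with Runx1 and 161, 135 and 150 CPM with Runx2, against 617, 437 and 468 CPM in OEV controls. It fell with Runx2 (log2 -1.77 ± 0.14, adjusted p = 7.3e-07) and was not called with Runx1, whose libraries lay within the range of the controls.

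Srebf1 had 1104, 1205 and 1140 CPM with Runx1 and 819, 719 and 746 CPM with Runx2, against 999, 1309 and 1097 CPM in OEV controls. It changed by 0.02 ± 0.11 with Runx1 (edgeR adjusted p = 0.9) and fell by 0.58 ± 0.11 with Runx2 (adjusted p = 0.00069). Acly changed by less than 0.01 with Runx1 (SE 0.22, adjusted p = 0.99) and fell by 0.77 ± 0.22 with Runx2 (adjusted p = 0.011), although its OEV libraries spread widely, at 1283, 657 and 1287 CPM, and overlapped the Runx2 libraries. Dgat2, Dgat1, Agpat2, Fads1, Fads2, Elovl5, Acss2, Me1 and Pnpla3 were also called lower with Runx2. The 4 members not called with Runx2 were Fasn, Acaca, Mlxipl and Mid1ip1.

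In the sterol arm 7 of 16 members rose (Fdps, Mvk, Mvd, Fdft1, Msmo1, Nsdhl and Dhcr7) and 2 fell (Insig1 and Lss) with Runx1, against 28.2% higher and 25.8% lower of all genes. With Runx2, 2 rose (Fdft1 and Cyp51) and 2 fell (Insig1 and Lss), against 31.3% and 29.6% of all genes. The median log2 change was 0.10 with Runx1 and 0.14 with Runx2, where those of all genes were 0.06 and 0.03. Insig1 had 288, 317 and 328 CPM with Runx1 and 357, 347 and 378 CPM with Runx2, against 647, 606 and 703 CPM in OEV controls. It fell by 1.07 ± 0.09 with Runx1 (edgeR adjusted p = 2.5e-06) and by 0.85 ± 0.09 with Runx2 (adjusted p = 7.8e-06). Lss, which cyclises squalene epoxide to lanosterol, fell by 0.37 ± 0.12 with Runx1 (adjusted p = 0.023) and by 0.73 ± 0.12 with Runx2 (adjusted p = 0.00031).

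Fdps, which makes farnesyl diphosphate, had 256, 293 and 219 CPM with Runx1 and 198, 152 and 164 CPM with Runx2, against 157, 134 and 169 CPM in OEV controls. The Runx1 libraries lay above all others and the Runx2 libraries overlapped the controls; the rise with Runx1 was 0.74 ± 0.14 (edgeR adjusted p = 0.00078). Mvk, mevalonate kinase, had 41.5, 46.5 and 30.2 CPM with Runx1 and 32.8, 25.1 and 25.5 CPM with Runx2, against 19.1, 22.9 and 22.5 CPM in OEV controls, and rose by 0.87 ± 0.17 with Runx1 (adjusted p = 0.001). Dhcr7, the last reductase of cholesterol synthesis, rose by 0.68 ± 0.10 with Runx1 (adjusted p = 0.00012). Fdft1, squalene synthase, rose by 0.43 ± 0.11 with Runx1 (adjusted p = 0.0059) and by 0.40 ± 0.11 with Runx2 (adjusted p = 0.0074). Mvd rose by 0.59 ± 0.16 (adjusted p = 0.0077) and Msmo1 by 0.39 ± 0.10 (adjusted p = 0.008) with Runx1. Along the same route Lss fell, and Hmgcs1, Idi1, Sqle, Cyp51 and Sc5d were not called with Runx1. In either direction 9 of the 16 sterol members were called with Runx1, where 54% of all genes were. Cyp51, lanosterol demethylase, passed narrowly with Runx2 (0.30 ± 0.12, adjusted p = 0.046) and its libraries overlapped the controls. Srebf2 lay at 266, 266 and 271 CPM with Runx1 and 290, 294 and 288 CPM with Runx2, against 261, 299 and 273 CPM in OEV controls (log2 -0.05 ± 0.08 and 0.06 ± 0.08, adjusted p = 0.58 and 0.5). Sqle, the squalene epoxidase, lay between 174 and 192 CPM in all 9 libraries (log2 -0.02 ± 0.07 with Runx1 and -0.06 ± 0.07 with Runx2, adjusted p = 0.8 and 0.47).

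**Figure D2:**
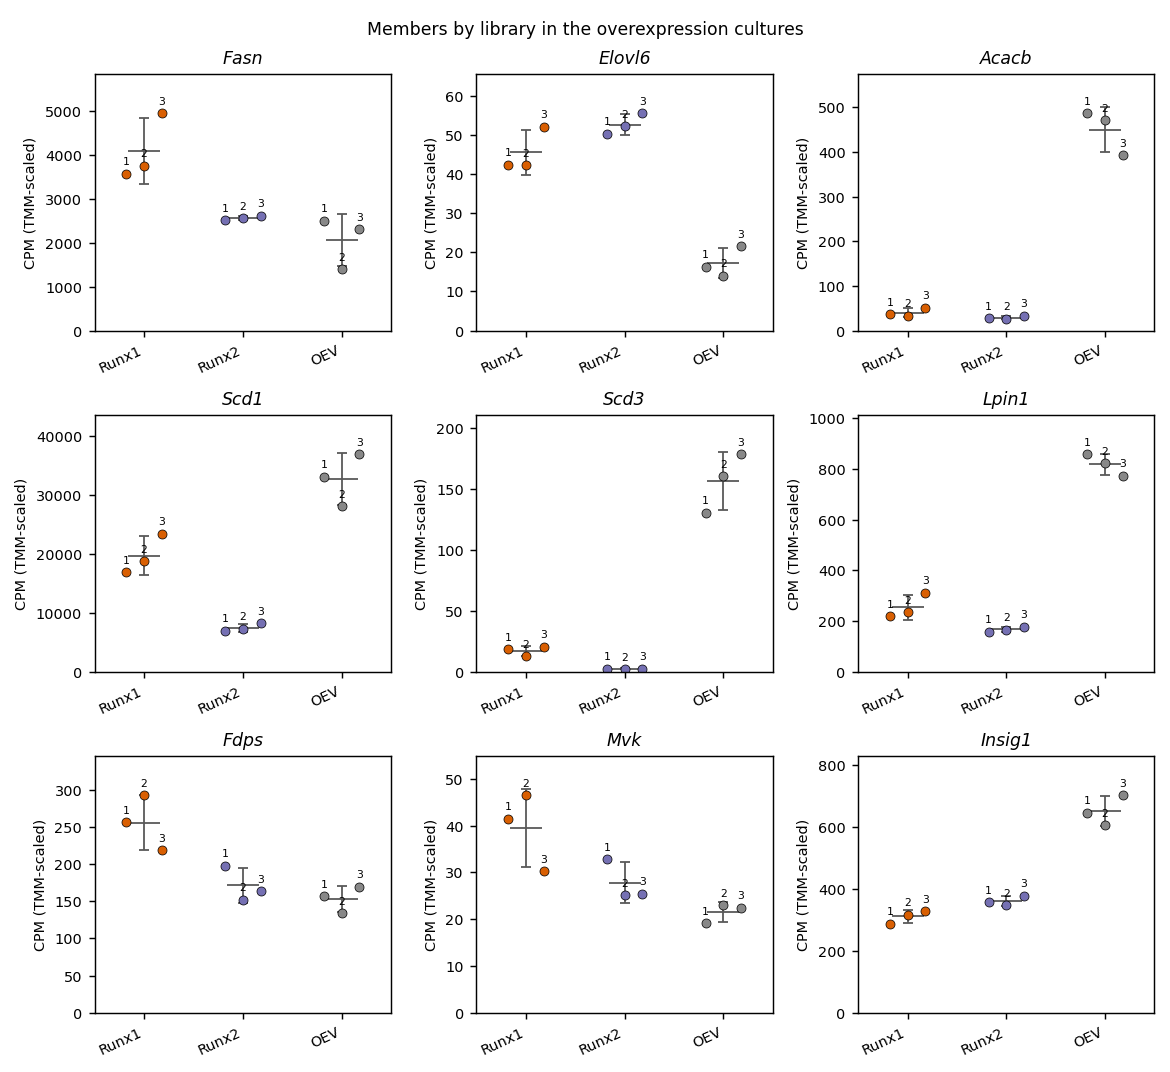
CPM (scaled by TMM within the table, linear axis from 0) of 9 members in each library of the Runx1-overexpressing, Runx2-overexpressing and OEV cultures; points carry the replicate number and bars show mean ± SD, n = 3. Acacb, Scd3 and Lpin1 of all 6 overexpressing libraries lie below the OEV libraries and Elovl6 above them, while Fdps and Mvk are highest in the Runx1 libraries.

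The cell markers of these cultures moved as well. The summed CPM of 8 brown or beige markers was 101 to 160 with Runx1 and 66.9 to 76.6 with Runx2, against 648 to 858 in OEV controls, and that of 7 adipocyte markers 6787 to 8408 with Runx1 and 4000 to 4777 with Runx2, against 7605 to 8020. No adipocyte marker was at 0 in any library, but these markers did not move together. Adipoq had 1169 to 1416 CPM with Runx1 and 931 to 1122 CPM with Runx2, against 886 to 963 CPM in OEV controls. Plin1 had 665 to 720 and 364 to 405 CPM, against 983 to 1188 CPM, and Pparg was also lower with both. Fabp4, the largest part of the sum, had 3339 to 4347 and 1904 to 2348 CPM, against 3647 to 4220 CPM. The sum of 9 stromal progenitor markers was 2215 to 2551 with Runx1 and 6693 to 7375 with Runx2, against 481 to 1071, with Dpp4 at 0 in all 3 OEV libraries and in 4 of the 6 overexpressing ones and Cidea at 0 in Runx2-overexpressing library 2. The part of these shifts in the members' changes was not tested. Leaving out the 3 libraries with cardiac transcripts, which leaves 1 OEV library whose spread is taken from the other groups, gave similar counts of partly different members: 16 fatty acid and 10 sterol members were called with Runx1, where 46.8% of all genes were, and 20 and 4 with Runx2, where 52.8% were. Acaca, Acly, Fads2, Sc5d and Stard4 were then also called lower with Runx1, while the rises of Me1 (edgeR adjusted p = 0.33), Pnpla3 (adjusted p = 0.59) and Nsdhl (adjusted p = 0.26) were lost. With Runx2, Acaca (log2 -0.56) and Stard4 (-0.51) were then called lower, and the rise of Cyp51 was lost (adjusted p = 0.71).

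Set directly against each other, Runx2 gave lower values than Runx1 in 16 fatty acid members and 5 sterol members and higher values in 2, Fads1 and Gpam, against 21% lower and 18.9% higher of all genes tested (39.9% in either direction). Scd3 was lower by 2.94 ± 0.20 on the log2 scale with Runx2 (edgeR adjusted p = 1.8e-06), Thrsp by 1.87 ± 0.14 (adjusted p = 3.1e-06) and Scd1 by 1.40 ± 0.14 (adjusted p = 3.1e-05). The Scd3, Thrsp and Scd1 libraries with Runx2 thus lay below all others of the table. Agpat2, Me1 and Pnpla3 followed at -0.77 ± 0.10, -0.88 ± 0.12 and -0.88 ± 0.12 (adjusted p = 0.00016, 0.00021 and 0.00023). In the sterol arm Dhcr7 (-0.55 ± 0.10, adjusted p = 0.001), Fdps (-0.58 ± 0.13, adjusted p = 0.0058), Mvk (-0.50 ± 0.16, adjusted p = 0.03), Lss (-0.36 ± 0.12, adjusted p = 0.037) and Nsdhl (-0.23 ± 0.09, adjusted p = 0.048) were lower with Runx2. Fads1 was higher with Runx2 by 0.47 ± 0.10 (adjusted p = 0.003) and Gpam by 0.41 ± 0.14 (adjusted p = 0.04). The median difference was -0.61 in the fatty acid arm and -0.11 in the sterol arm, where that of all genes was -0.02. Without Runx2-overexpressing library 2, 15 members were called in place of 23, where 26% of all genes were called in place of 39.9%.

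Other genes of the 2 pathways were called in both directions, where 54% of all genes were called with Runx1 and 60.9% with Runx2. Of 30 further fatty acid genes tested, 11 rose and 7 fell with Runx1 and 4 rose and 18 fell with Runx2; of 20 further sterol genes, 7 rose and 6 fell with Runx1 and 7 rose and 7 fell with Runx2. The elongase gene Elovl4 rose by 1.27 ± 0.13 with Runx1 and by 1.95 ± 0.14 with Runx2 (edgeR adjusted p = 1.4e-05 and 2.8e-07), and the acyltransferase gene Gpat3 by 1.48 ± 0.09 and 1.08 ± 0.09 (adjusted p = 3.4e-07 and 1.6e-06). Elovl3, a brown fat elongase, fell by 3.96 ± 0.19 with Runx2 (adjusted p = 1.6e-08). Among sterol genes, the efflux pump gene Abcg1 rose by 1.04 ± 0.09 and 1.35 ± 0.09, while Npc1, which exports cholesterol from lysosomes, fell by 1.58 ± 0.11 and 1.17 ± 0.11, with Runx1 and Runx2 in that order (adjusted p of 3.8e-06 or lower in each).

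In cultures labelled as single knockouts, whose target transcripts were not lower, none of the 39 members was called by the edgeR test. In Runx1 knockouts 0.435% of 13551 genes were called, and in Runx2 knockouts 0.184%. At an unadjusted p under 0.05, 6 fatty acid and 1 sterol members differed in Runx1 knockouts, where 6.95% of all genes did, and 2 and 0 members in Runx2 knockouts, where 6.43% did. DESeq2 called 4 members in Runx1 knockouts (Dgat2, Elovl6, Mlxipl and Acly), where it called 1.62% of all genes, and Dgat2 in Runx2 knockouts, where it called 1.45%. Fitted without the other knockout groups, edgeR called 5 members in Runx1 knockouts (Acly, Acaca, Fasn and Elovl6 higher, Dgat2 lower; 1.5% of all genes) and 2 in Runx2 knockouts (Fasn higher, Dgat2 lower; 0.808%). The arms' median changes were 0.05 and -0.05 in Runx1 knockouts and 0.09 and 0.05 in Runx2 knockouts, where those of all genes were -0.01 in both.

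In cultures labelled as double knockouts, 7 fatty acid members were called, 4 higher (Elovl6, Pnpla3, Acly and Acss2) and 3 lower (Dgat2, Gpam and Lpin1), and 2 sterol members, both higher (Fdps and Cyp51), against 8.27% higher and 7.01% lower of all genes (15.3% in either direction). The medians were close to 0 in the fatty acid arm (-0.0034) and 0.20 in the sterol arm, where that of all genes was 0.02.

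Dgat2, which adds the last acyl chain of triglyceride, had 532, 483 and 471 CPM in Runx1 knockouts, 461, 478 and 440 CPM in Runx2 knockouts and 279, 313 and 315 CPM in double knockouts, against 626, 769 and 687 CPM in controls. Every knockout library lay below every control and the double knockouts lay lowest. The change was -0.49 ± 0.11 in Runx1 knockouts (edgeR adjusted p = 0.13), -0.59 ± 0.11 in Runx2 knockouts (adjusted p = 0.071) and -1.20 ± 0.11 in double knockouts (adjusted p = 6.9e-05), a 2.29-fold fall. Elovl6 had 10.3, 10.6 and 12.4 CPM in Runx1 knockouts, 9.94, 10 and 10.5 CPM in Runx2 knockouts and 15.4, 20 and 24.8 CPM in double knockouts, against 7.32, 7.31 and 6.02 CPM in controls. It was 2.91-fold higher in double knockouts (log2 1.54 ± 0.17, adjusted p = 0.00021), with 0.69 ± 0.17 (adjusted p = 0.17) and 0.56 ± 0.17 (adjusted p = 0.39) in Runx1 and Runx2 knockouts. Elovl6 was thus higher in the cultures labelled double knockout and in both overexpressions, each against its own control.

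Pnpla3 had 70.4, 72.8 and 74.2 CPM in Runx1 knockouts, 62.3, 68.8 and 69.8 CPM in Runx2 knockouts and 106, 106 and 101 CPM in double knockouts, against 54.1, 58.8 and 65.2 CPM in controls, and rose in the double knockouts (0.81 ± 0.10, edgeR adjusted p = 0.00039). Gpam had 386, 492 and 533 CPM in double knockouts, against 829, 781 and 727 CPM in controls, and fell (-0.73 ± 0.13, adjusted p = 0.0032). Acly had 1157, 1100 and 1053 CPM in Runx1 knockouts, 834, 884 and 869 CPM in Runx2 knockouts and 799, 1448 and 1597 CPM in double knockouts, against 743, 600 and 665 CPM in controls. All 9 knockout libraries lay above the controls, by 0.72 ± 0.20 in Runx1 knockouts (adjusted p = 0.27), 0.37 ± 0.20 in Runx2 knockouts (adjusted p = 0.9) and 0.94 ± 0.20 in double knockouts (adjusted p = 0.01). Fdps had 429, 212 and 206 CPM in double knockouts, against 163, 123 and 123 CPM in controls (1.05 ± 0.24, adjusted p = 0.013). Cyp51 had 193, 157 and 140 CPM in double knockouts, against 134, 96.6 and 102 CPM in controls (0.56 ± 0.14, adjusted p = 0.023). Library 1 was the highest double knockout for both sterol genes and the lowest for Acly, Gpam and Lpin1. Acss2, at 143, 243 and 249 CPM in double knockouts, overlapped the controls at 147, 123 and 124 CPM (0.69 ± 0.18, adjusted p = 0.021). Lpin1, at 260, 545 and 591 CPM in double knockouts, against 771, 813 and 763 CPM in controls, passed narrowly (-0.75 ± 0.23, adjusted p = 0.048) and missed the threshold with the replicate number as a block (adjusted p = 0.053).

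Fasn had 2148, 1771 and 1768 CPM in Runx1 knockouts, 1754, 1579 and 1765 CPM in Runx2 knockouts and 824, 2129 and 2614 CPM in double knockouts, against 1288, 1207 and 1359 CPM in controls. Only double knockout library 1 fell below the controls, and none of the 3 changes passed the test (0.56 ± 0.30, 0.40 ± 0.30 and 0.53 ± 0.30, edgeR adjusted p = 0.85, 1 and 0.25). Scd1 changed by 0.10 ± 0.18 in Runx1 knockouts, 0.20 ± 0.18 in Runx2 knockouts and 0.27 ± 0.18 in double knockouts (adjusted p = 1, 1 and 0.33). Srebf1 changed by 0.07 ± 0.11, -0.05 ± 0.11 and 0.09 ± 0.11 in the same order (adjusted p = 1, 1 and 0.58), and Mlxipl by 0.58 ± 0.15, 0.09 ± 0.15 and 0.40 ± 0.15 (adjusted p = 0.21, 1 and 0.098). In the sterol arm, Srebf2 changed by 0.11 ± 0.29, -0.01 ± 0.29 and -0.27 ± 0.29 (adjusted p = 1, 1 and 0.55). Sqle changed by -0.24 ± 0.09, -0.15 ± 0.09 and 0.21 ± 0.09 (adjusted p = 0.6, 0.95 and 0.15), and Insig1 by -0.02 ± 0.10, 0.11 ± 0.10 and -0.23 ± 0.10 (adjusted p = 1, 1 and 0.13). None of these 7 genes, Fasn included, was called in any of the 3 knockouts with all groups of this set fitted together. Fitted without the other knockout groups, Fasn was called higher in Runx1 knockouts (0.58 ± 0.09, edgeR adjusted p = 0.012) and Runx2 knockouts (0.41 ± 0.08, edgeR adjusted p = 0.043). DESeq2 called Mlxipl higher in Runx1 knockouts (DESeq2 adjusted p = 0.028). Without double knockout library 1, edgeR called Fasn, Scd1 and Mlxipl higher in double knockouts and none of the others.

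**Figure D3:**
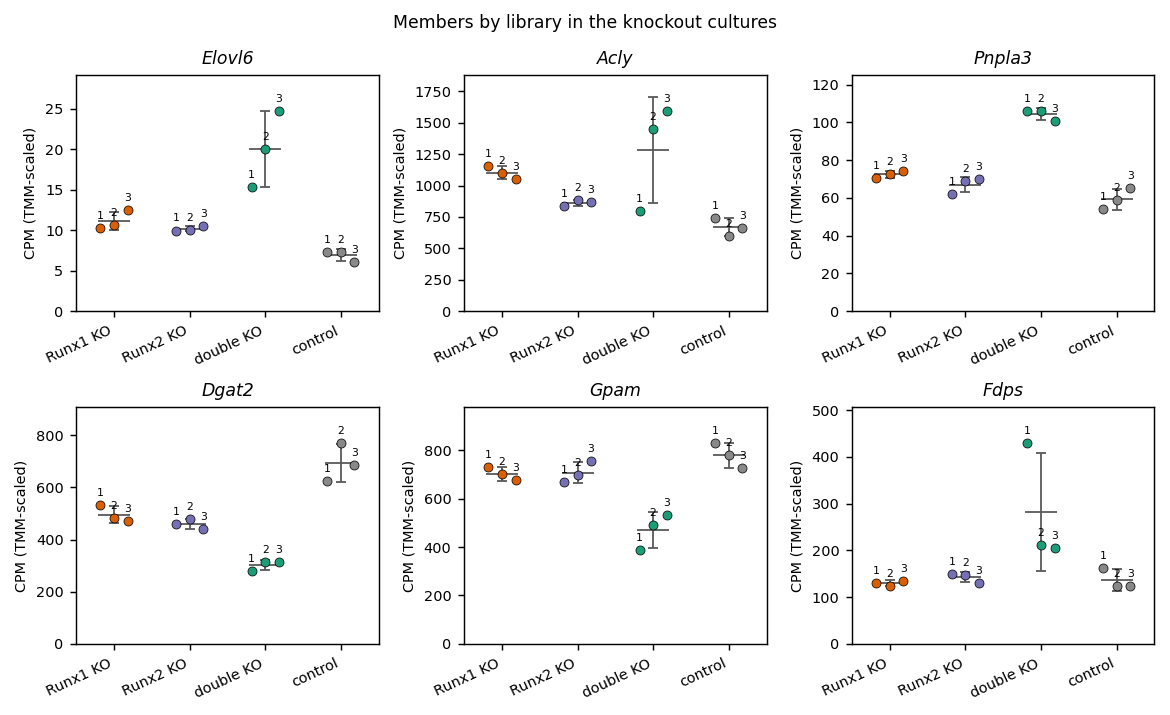
CPM (TMM-scaled, linear axis from 0) of 6 members in each library of the Runx1 knockout, Runx2 knockout, double knockout and control cultures; points carry the replicate number and bars show mean ± SD, n = 3. Dgat2 and Gpam are lowest and Elovl6 and Pnpla3 highest in the double knockouts, and double knockout library 1 lies apart from the other 2 for Acly and Fdps.

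Double knockout library 1 stood apart. It had the lowest value of its group for 18 of the 23 fatty acid members, with Srebf2 at 91 CPM where the other 2 double knockouts had 245 and 262 CPM. By comparison, Runx1-overexpressing library 3 was the highest of its group for 17 of the 23, and such shares over all genes were not counted. The 7 adipocyte markers of double knockout library 1 summed to 15855 CPM, against 7733 to 8258 CPM in the other 2 and 7385 to 7456 CPM in controls. Most of the library 1 sum was Fabp4, at 12058 CPM, against 4614 and 4070 CPM in the other 2 double knockouts. Adipoq (1142, against 843 and 804 CPM) and Pparg (537, against 430 and 430 CPM) were higher by less. Plin1 was lower, at 609 CPM, against 949 and 999 CPM. Without double knockout library 1, 13 fatty acid members (9 higher, 4 lower) and 5 sterol members (all higher) were called, where 26% of all genes were. Fasn then rose by 0.89 ± 0.10 (edgeR adjusted p = 4e-06), Acly by 1.19 ± 0.09, Acss2 by 0.91 ± 0.09 and Elovl6 by 1.71 ± 0.14, while Dgat2 fell by 1.14 ± 0.09. The count also moved with the controls: without control library 2, 4 fatty acid members and 0 sterol members were called, where 7.59% of all genes were. Without control library 3, 0 sterol members were called, where 9% of all genes were. Dgat2, Elovl6, Pnpla3 and Gpam were called with any single library left out, and fitted without the single knockouts edgeR called Dgat2, Elovl6 and Pnpla3 (2.88% of all genes). The 9 stromal markers summed to 889 to 1647 CPM in double knockouts, against 419 to 683 CPM in controls, with Dpp4 and Cd34 at 0 in all 3 controls. The brown fat marker Ucp1 had 9.62 to 22.0 CPM in controls. It had 45.2 to 54.3 CPM in Runx1 knockouts, 45 to 52.7 in Runx2 knockouts and 59.3 to 121 in double knockouts. Cidea, another such marker, had 182 to 190, 234 to 259 and 149 to 266 CPM, against 183 to 221 CPM in controls. The part of these shifts in the members' changes was not tested.

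Double knockouts were also set against the single knockouts. Double knockouts differed from Runx1 knockouts in 7 members, where 6.44% of all genes were called, and from Runx2 knockouts in 6, where 5.52% were. Pnpla3, Elovl6, Sqle and Fdps were higher and Dgat2 and Gpam lower in both, and Cyp51 was higher than in Runx1 knockouts. Elovl6 was higher by 0.85 ± 0.17 than in Runx1 knockouts (edgeR adjusted p = 0.014) and by 0.98 ± 0.17 than in Runx2 knockouts (adjusted p = 0.0076). Pnpla3 was higher by 0.53 ± 0.10 and 0.64 ± 0.10 (adjusted p = 0.013 and 0.0051), and Fdps by 1.12 ± 0.24 and 0.98 ± 0.24 (adjusted p = 0.02 and 0.036). The groups did not overlap for any of these 3 genes. Dgat2 was lower by 0.71 ± 0.11 and 0.60 ± 0.11 (adjusted p = 0.0053 and 0.011), and Gpam by 0.58 ± 0.13 and 0.59 ± 0.13 (adjusted p = 0.022 and 0.021). Sqle, at 214, 226 and 208 CPM in double knockouts, exceeded the 166, 154 and 156 CPM of Runx1 knockouts (0.45 ± 0.09, adjusted p = 0.017) and the 162, 176 and 167 CPM of Runx2 knockouts (0.36 ± 0.09, adjusted p = 0.044). Cyp51 was higher than in Runx1 knockouts by 0.62 ± 0.14 (adjusted p = 0.026). Fitted on the compared groups alone, edgeR called no member in either comparison, where it called 0.0531% and 0.234% of all genes. These counts rested on few libraries. Against Runx1 knockouts they were 1, 1 and 2 without Runx1 knockout library 1, 2 or 3, where 1.38%, 1.27% and 1.94% of all genes were called. Against Runx2 knockouts they were 3, 1 and 3 without Runx2 knockout library 1, 2 or 3, where 1.91%, 1.62% and 1.48% were. Without double knockout library 1 both were 18, where 12.9% and 12.8% of all genes were called.

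Among other pathway genes, double knockouts called 5 of 31 fatty acid genes higher and 3 lower, and 1 of 20 sterol genes in each direction. Of all genes, 8.27% were called higher and 7.01% lower. Mogat1, an acyltransferase of the monoacylglycerol pathway, rose by 1.76 ± 0.21 (edgeR adjusted p = 0.00029), and Hacd2, a dehydratase of the elongation cycle, fell by 0.94 ± 0.10 (adjusted p = 9.9e-05). Lbr, a sterol reductase of the nuclear envelope, rose by 0.62 ± 0.12 (adjusted p = 0.0045). Mylip, which marks lipoprotein receptors for breakdown, fell by 0.89 ± 0.14 (adjusted p = 0.0017). No such gene was called in either single knockout, where 0.435% (Runx1) and 0.184% (Runx2) of all genes were.

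In iWAT, part of the fatty acid arm rose in the Adipoq-cre Runx1 knockout. Of 23 members 8 rose and none fell, against 4.45% higher and 3.03% lower of all 15896 genes tested (7.48% in either direction). The median change of the arm was 0.48, where that of all genes was close to 0 (-0.0037). The 8 were Mid1ip1, Fasn, Gpam, Mlxipl, Elovl6, Dgat2, Srebf1 and Acacb, which include both transcription factor genes of the arm.

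Mid1ip1, which promotes polymerisation of acetyl-CoA carboxylase, had 81.9, 65.7 and 58.4 CPM in knockouts, against 20, 27.8 and 27.6 CPM in Runx1 flox mice, a 2.73-fold rise (log2 1.45 ± 0.18, edgeR adjusted p = 0.0035). Fasn had 1242, 1100 and 1145 CPM in knockouts, against 610, 487 and 377 CPM in flox mice, a 2.37-fold rise (1.24 ± 0.19, adjusted p = 0.007). Gpam had 367, 256 and 232 CPM in knockouts, against 133, 122 and 96.9 CPM in flox mice, a 2.43-fold rise (1.28 ± 0.19, adjusted p = 0.0071). In all 3 genes every knockout library lay well above every flox library. Mlxipl had 88.3, 59.7 and 49.1 CPM in knockouts, against 28.1, 35.9 and 32.7 CPM in flox mice (1.03 ± 0.21, adjusted p = 0.02). Srebf1 had 321, 241 and 183 CPM in knockouts, against 86.8, 107 and 161 CPM in flox mice (1.07 ± 0.27, adjusted p = 0.047). Both factor genes were separate between the groups, but for Srebf1 the closest libraries, 183 and 161 CPM, nearly met. Elovl6 rose by 0.85 ± 0.18 (adjusted p = 0.021), at 27.3, 30.7 and 35.5 CPM in knockouts, against 16.4, 20.9 and 14.5 CPM in flox mice. Dgat2 rose by 0.67 ± 0.15 (adjusted p = 0.031), at 368 ± 48.3 CPM in knockouts, against 232 ± 27 CPM in flox mice, and Acacb by 0.69 ± 0.18 (adjusted p = 0.047), at 413 ± 25.1 CPM, against 256 ± 65.3 CPM (SD, n = 3 each).

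The desaturases and the sterol arm did not pass. Scd1 overlapped, at 5158, 6402 and 6302 CPM in knockouts and 7786, 8211 and 4961 CPM in flox mice (-0.23 ± 0.20, edgeR adjusted p = 0.51), and Acly changed by 0.48 ± 0.23 (adjusted p = 0.22). None of the 15 sterol members tested was called at an adjusted p under 0.05, and 5 had an unadjusted p under 0.05 (25.1% of all genes did). DESeq2 called 1 of the 15, where it called 14.4% of all genes. The median change of the 15 was 0.12. Srebf2 had 82.6, 81.6 and 79.6 CPM in knockouts, against 93.9, 87.5 and 124 CPM in flox mice (-0.32 ± 0.14, adjusted p = 0.19), Sqle changed by -0.42 ± 0.19 (adjusted p = 0.19) and Insig1 by -0.09 ± 0.25 (adjusted p = 0.85). Idi1 stayed at 0 to 1.3 CPM in every library of the series and was too low to be tested in the 3 iWAT knockout comparisons.

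Skeletal muscle transcripts were uneven in this table, with 9 genes summing to 227 to 16667 CPM in knockouts and 15.9 to 7058 CPM in flox mice, and Myh1, Myh2 and Myh4 at 0 in flox libraries 1 and 3. With the log2 of this sum as a covariate, a fit added after the data were seen, Mid1ip1 (1.44), Gpam (1.39) and Fasn (1.33 on the log2 scale) were called and no other member, where 1.99% of all genes were. Leaving out the 3 libraries above 1000 CPM of the sum leaves 1 knockout library against 2 flox libraries, so the knockout's spread is unmeasured and taken from the flox pair. Under that assumption 6 fatty acid members were called, where 2.5% of all genes were; Elovl6 and Dgat2 lost their calls, and Hmgcs1 was called higher, at 217 CPM in knockout library 1, against 66.8 and 104 CPM in flox libraries 1 and 3. Without flox library 1, 4 fatty acid members were called, without knockout library 1, 4, without knockout library 2, 3, and without knockout library 3, 5. Of all genes, 5.28%, 2.68%, 0.61% and 1.84% were called in these fits, in that order. Fasn, Mid1ip1 and Gpam were called with any single library left out. The 8 brown or beige markers summed to 296 to 452 CPM in knockouts, against 187 to 265 CPM in flox mice, and the adipocyte markers to 19009 to 24463 CPM, against 16723 to 25833 CPM. The sum of 5 endothelial markers was 530 to 762 CPM in knockouts, against 817 to 1092 CPM in flox mice, also with no overlap. The part of the brown or beige and endothelial shifts in these rises was not tested. Of 30 other fatty acid genes 6 rose and none fell, against 4.45% higher and 3.03% lower of all genes tested. Among the 6 were Agpat1 (0.84 ± 0.11, edgeR adjusted p = 0.0051), Mlx (1.05 ± 0.16, adjusted p = 0.0083), the partner of ChREBP, and Slc25a1 (0.65 ± 0.14, adjusted p = 0.026), the mitochondrial citrate carrier. Of 20 other sterol genes 1 rose, Acat2 (0.71 ± 0.17, adjusted p = 0.032), which makes acetoacetyl-CoA in the cytosol.

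In the Adipoq-cre Runx2 knockout no member was called by edgeR, and 0% of 15574 genes were. An unadjusted p under 0.05 was reached by 7 fatty acid and 6 sterol members, where 20.6% of all genes reached it. DESeq2 called 6 and 1, where it called 6.67% of all genes. The median change was 0.72 in the fatty acid arm and 0.30 in the sterol arm, where that of all genes was -0.04. The lowest adjusted p was that of Scd3 (3.50 ± 0.42, adjusted p = 0.2), which was rare in this tissue at 1.45 ± 0.106 CPM in knockouts, against 0.126 ± 0.0286 CPM in Runx2 flox mice (SD, n = 3 each).

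Scd1 had 2969, 3260 and 2813 CPM in knockouts, against 1330, 1611 and 676 CPM in flox mice, with no overlap (1.32 ± 0.35, edgeR adjusted p = 0.22). Lpin1 had 1631, 1205 and 1234 CPM in knockouts, against 188, 322 and 756 CPM in flox mice (1.68 ± 0.50, adjusted p = 0.22). Fasn had 526, 1346 and 719 CPM in knockouts, against 144, 180 and 529 CPM in flox mice, where flox library 3 overlapped the knockouts (1.60 ± 0.58, adjusted p = 0.22). The same flox library stood close to or within the knockouts in most of the list. It was the highest of its group for 18 of 22 fatty acid members and 11 of 15 sterol members that averaged over 1 CPM there, with Thrsp at 1472 CPM where the other 2 flox libraries had 262 and 261 CPM and the knockouts had 1466, 1630 and 1636 CPM. The share of all genes for which this flox library was the highest was not counted.

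Without flox library 3, 16 of 23 fatty acid members were called, all higher, and 9 of 15 sterol members, 7 higher and 2 lower, where 40% of all genes were called. Thrsp then rose by 2.60 ± 0.19, Lpin1 by 2.41 ± 0.28, Fasn by 2.42 ± 0.39 (edgeR adjusted p = 0.0018) and Acacb by 2.01 ± 0.20, and Srebf2 and Mvd fell by 0.85 ± 0.16 and 0.92 ± 0.18. Flox library 3 also carried the skeletal muscle transcripts, at 7299 CPM summed, where the other 5 libraries of the table had 50.2 to 454 CPM. Its 8 B cell markers summed to 294 CPM, nearer the knockouts (256 to 586 CPM) than flox libraries 1 and 2 (1790 and 1817 CPM). Its adipocyte markers, at 31706 CPM, also stood with the knockouts (31046 to 39214 CPM) and not with flox libraries 1 and 2 (12044 to 14639 CPM). With the muscle sum as a covariate, added after the data were seen, 15 fatty acid and 5 sterol members were called, where 21% of all genes were. The labels give no ground to leave the library out, and the part of these marker differences in the members' values was not tested.

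Srebf1 had 213, 172 and 128 CPM in knockouts, against 146, 164 and 343 CPM in flox mice (-0.35 ± 0.37, edgeR adjusted p = 0.57), and Mlxipl 84.1, 68 and 70.8 CPM, against 29.9, 26.9 and 104 CPM (0.47 ± 0.50, adjusted p = 0.58). Both overlapped. Acly changed by 0.39 ± 0.21 (adjusted p = 0.3), Srebf2 by -0.62 ± 0.26 (adjusted p = 0.24), Sqle by 0.45 ± 0.26 (adjusted p = 0.33) and Insig1 by 0.35 ± 0.34 (adjusted p = 0.54). None of the 30 other fatty acid and 20 other sterol genes tested was called by edgeR, and 0% of all genes were. Among the 30 and the 20, 13 and 3 had an unadjusted p under 0.05, where 20.6% of all genes had. The 8 brown or beige markers summed to 434 to 1123 CPM in knockouts, against 97.1 to 247 CPM in flox mice, and macrophage markers to 932 to 1116 CPM, against 1165 to 1870 CPM. The part of these shifts in the members' values was not tested.

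**Figure D4:**
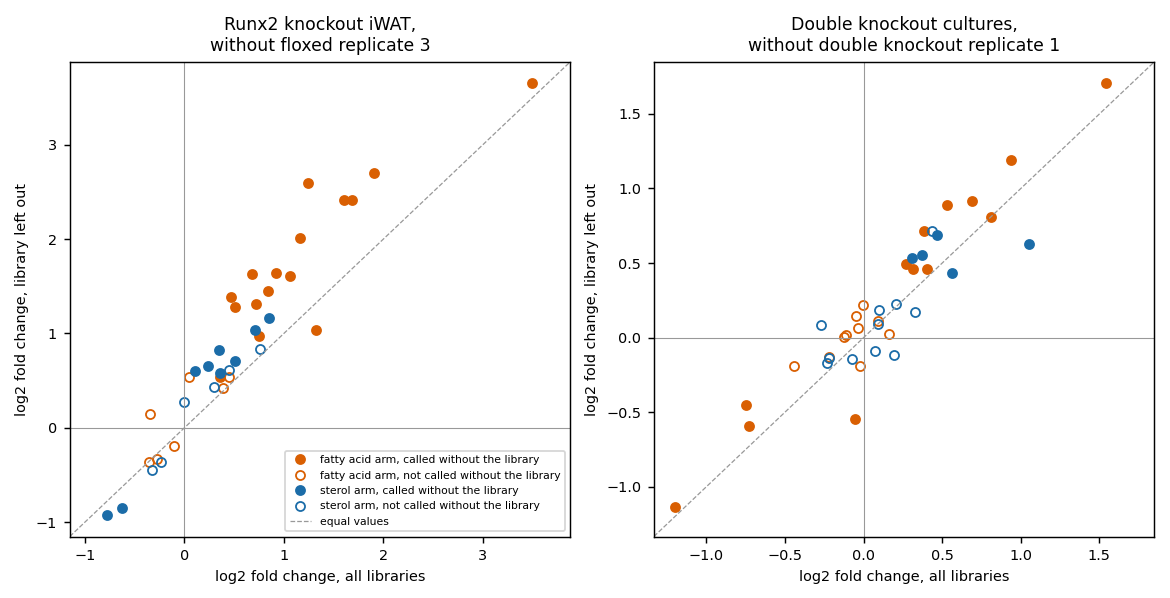
Log2 fold change of each member with all libraries (x axis) and with 1 library left out (y axis), for Runx2 knockout iWAT without flox library 3 and for double knockout cultures without double knockout library 1. Orange marks the fatty acid arm, blue the sterol arm, filled points are called at an edgeR adjusted p under 0.05 without the library, and the dashed line marks equal values; most fatty acid members of the iWAT panel lie above the line.

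Among mice labelled HFD, no member was called in the Runx1 knockout, where 2.11% of 15058 genes were called, and none of the 22 fatty acid and 15 sterol members tested had an unadjusted p under 0.05, where 8.5% of all genes did. DESeq2 called none either, where it called 3.43% of all genes. The medians were -0.10 and -0.14, where that of all genes was 0.0057. Fasn had 283, 2518 and 363 CPM in knockouts, against 651, 1159 and 1321 CPM in wild types (0.02 ± 0.68, edgeR adjusted p = 1). Knockout library 2 was the highest of its group for 18 of 22 fatty acid members and 14 of 15 sterol members, and the other 2 knockouts lay below all wild types for Fasn. The share of all genes for which this library was the highest was not counted. Without knockout library 2, Fasn fell by 1.69 ± 0.34 (edgeR adjusted p = 0.032) and Agpat2 by 1.38 ± 0.30 (adjusted p = 0.044), where 1.75% of all genes were called. Scd1 had 21858, 35706 and 17721 CPM in knockouts, against 21340, 25340 and 27472 CPM in wild types (0.02 ± 0.32, adjusted p = 1). The groups overlapped for all 8 genes followed throughout. Acly changed by -0.25 ± 0.28 (adjusted p = 0.96), Srebf1 by -0.34 ± 0.29 (adjusted p = 0.93), Mlxipl by 0.25 ± 0.31 (adjusted p = 0.97), Srebf2 by -0.49 ± 0.28 (adjusted p = 0.77), Sqle by -0.17 ± 0.28 (adjusted p = 0.98) and Insig1 by -0.20 ± 0.41 (adjusted p = 0.99). The authors' deposited table for this comparison lists 403 genes, none of them a member; its smallest absolute log2 fold change is 1.02. The 8 B cell markers summed to 3.08 to 4.96 CPM in knockouts, against 192 to 465 CPM in wild types, and 5 T cell markers to 3.29 to 18.1 CPM, against 82.7 to 215 CPM.

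**Figure D5:**
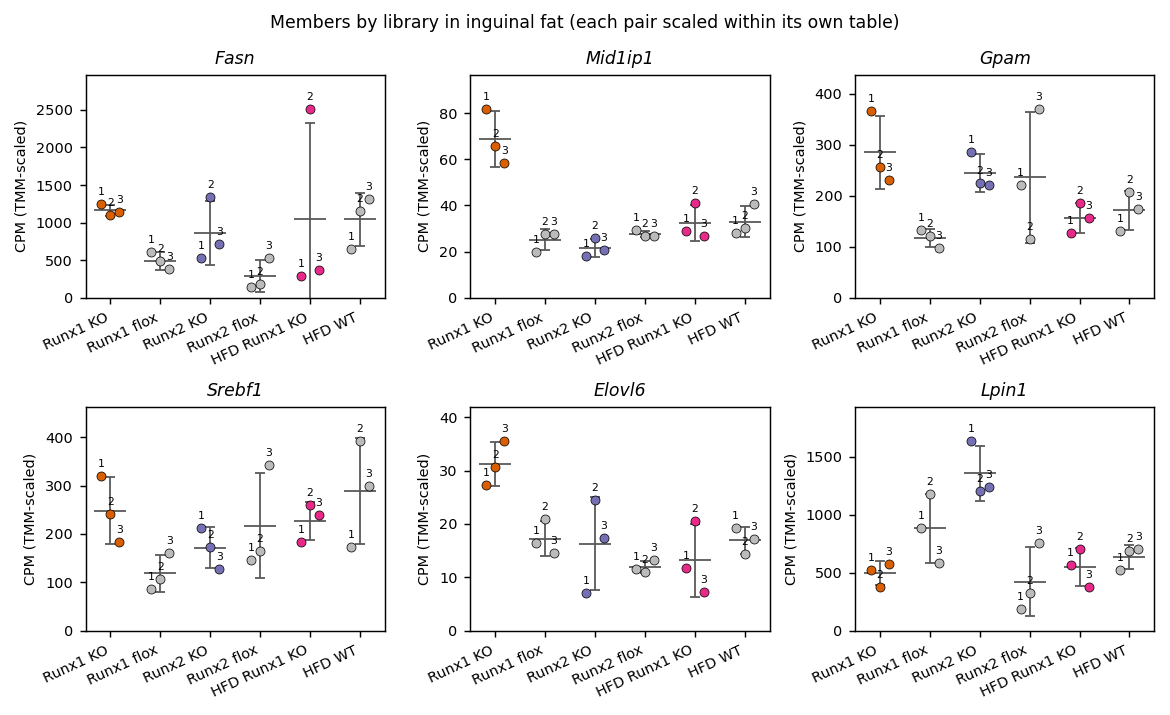
CPM (TMM-scaled within each table, linear axis from 0) of 6 members in each iWAT library, with each knockout left of its flox or wild-type group; points carry the replicate number and bars show mean ± SD, n = 3, cut at 0 by the axis for Fasn in the HFD knockouts. Fasn, Mid1ip1 and Gpam separate the Runx1 knockout from its flox group, Runx2 flox library 3 and HFD knockout library 2 lie far from their groups for Fasn, and levels should be compared only within a pair.

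The 3 iWAT tables were also joined to test whether the knockout effects differed, although table and condition cannot be told apart. Mid1ip1 was the member whose change differed between the HFD and the other Runx1 knockout (HFD minus other, log2 -1.48 ± 0.30, edgeR adjusted p = 0.0096), where 3.22% of 16702 genes were called. It had 29, 41.2 and 26.9 CPM in HFD knockouts, against 28.1, 30.2 and 40.5 CPM in HFD wild types. Its change also differed between Runx2 and Runx1 knockouts (Runx2 minus Runx1, -1.77 ± 0.30, adjusted p = 0.0066), as did that of Lpin1 (2.56 ± 0.55, adjusted p = 0.023), where 1.93% of all genes were called. Lpin1 had 525, 379 and 576 CPM in Runx1 knockouts, against 887, 1178 and 579 CPM in Runx1 flox mice (-0.84, adjusted p = 0.078), where in the Runx2 pair the knockouts were the higher group. For Fasn the difference was -1.24 ± 0.95 between HFD and other Runx1 knockouts (adjusted p = 0.53) and 0.40 ± 0.95 between Runx2 and Runx1 knockouts (adjusted p = 0.85). Lpin1 lost its call without Runx1 flox library 2, Runx1 knockout library 2, Runx2 flox library 2 or Runx2 knockout library 1. Each of these fits left 1 member called, where 0.457% to 0.773% of all genes were. Without Runx2 flox library 3, 8 members were called, where 15.4% of all genes were. Without HFD knockout library 2 the HFD difference had 5, where 3.55% of all genes were called.

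Cultures with IDR-deleted Runx2 stood above those with full-length Runx2 for part of the list. Of 23 fatty acid members 8 rose and none fell, and of 16 sterol members 2 rose (Fdps and Lss) and 1 fell (Fdft1), against 1.51% higher and 2.4% lower of all 13110 genes tested (3.91% in either direction). The medians were 0.17 and 0.09, where that of all genes was 0.0016. With 2 libraries a group the spread is poorly known.

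Fasn had 1391 and 1251 CPM with the deletion, against 948 and 941 CPM with full-length Runx2 (0.48 ± 0.07, edgeR adjusted p = 2.7e-05). Scd2 had 3540 and 3230 CPM with the deletion, against 2572 and 2162 CPM (0.52 ± 0.08, adjusted p = 4.6e-05), and Scd3 58 and 57.6 CPM, against 40.3 and 30.1 CPM (0.71 ± 0.11, adjusted p = 5.4e-05). The deletion libraries lay above the full-length ones in all 3. Srebf1 had 1232 and 1214 CPM with the deletion, against 1013 and 994 CPM (0.29 ± 0.07, adjusted p = 0.013). Agpat2 (0.38 ± 0.08, adjusted p = 0.0016), Acss2 (0.41 ± 0.09, adjusted p = 0.0025), Me1 (0.37 ± 0.08, adjusted p = 0.0033) and Pnpla3 (0.42 ± 0.10, adjusted p = 0.0073) also rose. Fdft1 had 115 and 132 CPM with the deletion, against 163 and 188 CPM (-0.50 ± 0.08, adjusted p = 0.00012), while Fdps rose by 0.38 ± 0.08 (adjusted p = 0.0046) and Lss by 0.31 ± 0.08 (adjusted p = 0.02). Elovl6 was lower with the deletion, at 9.29 and 9.33 CPM, against 13.1 and 12.5 CPM, short of the threshold (-0.45, adjusted p = 0.083).

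Scd1 changed by 0.08 ± 0.08 (edgeR adjusted p = 0.74), Acly by 0.09 ± 0.07 (adjusted p = 0.64), Mlxipl by -0.09 ± 0.08 (adjusted p = 0.68), Srebf2 by -0.07 ± 0.08 (adjusted p = 0.75), Sqle by 0.18 ± 0.08 (adjusted p = 0.26) and Insig1 by 0.09 ± 0.07 (adjusted p = 0.65). The authors' deposited table for this comparison lists 341 genes, which include the same 11 members; in the authors' deposited table Fasn has a log2 fold change of 0.48 and Fdft1 one of -0.50. Fasn, Scd2, Scd3 and Fdft1 were called with any single library left out. Without full-length library 2, 3 fatty acid members and 1 sterol member were called, and without IDR-deleted library 1, 5 and 1. Of all genes, 1.79% and 1.99% were called in these fits, in that order. The Runx2 count itself was lower with the deletion (log2 -1.19 ± 0.08, edgeR adjusted p = 7.3e-12), so deletion and dose cannot be told apart. Runx1 was also called lower, at 3.38 to 4.30 CPM with the deletion, against 8.04 to 8.37 CPM (log2 -1.09 ± 0.20, adjusted p = 0.00033). Among other pathway genes, 1 of 30 fatty acid genes rose and 2 fell, and 2 of 20 sterol genes rose and 1 fell. Of all genes, 1.51% rose and 2.4% fell. Lpin3 fell by 0.68 ± 0.14 (adjusted p = 0.0016), Pmvk, phosphomevalonate kinase, rose by 0.44 ± 0.10 (adjusted p = 0.0046), and Abcg1 fell by 0.50 ± 0.08 (adjusted p = 0.00012).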

How the data were processed

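Polyadenylated RNA was sequenced in 43 libraries of 15 groups. Reads were processed with fastp, STAR and featureCounts on the mouse build mm39, per the submitters' processing notes, which give no versions or settings. The authors deposited 6 tables of raw read counts per gene, and 2 tables of their own comparisons, whose log2 fold changes and p-values (adjusted) are the authors' deposited values. The count tables also hold 10 columns of per-sample values that match no sample here and were not used. Among counts of 1 to 19, 71.1% to 81.9% were even in each library, so a count need not be 1 fragment; how pairs were counted is not given in the sources used here. No 2 replicates were alike (lowest chi-square per gene 6.68).

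Counts were fitted per table with edgeR 4.0.16 (R 4.3.3, limma 3.58.1): filterByExpr on groups, TMM, robust quasi-likelihood fits with all groups of the table, and Benjamini-Hochberg adjustment over all genes tested; a gene was called at an adjusted p under 0.05. Log2 fold changes are perturbed minus control, with SE, and CPM are TMM-scaled within a table. The fits were tested on simulated counts. The members, the lists of other pathway genes and markers and the comparisons were chosen with earlier results of these data known. In each comparison up to 6 called members per arm and direction, of lowest adjusted p, are given with statistics, along with Fasn, Scd1, Acly, Srebf1, Mlxipl, Srebf2, Sqle and Insig1; members named beyond that, mostly in account of the whole list, were chosen after their values were seen.

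Alternatives were DESeq2 1.42.0, its size factors, no count filter, the compared groups alone, a block for the replicate number, omission of each library in turn and of the libraries with cardiac transcripts; the skeletal muscle covariate and the omission of muscle-rich libraries were chosen after seeing the data. For double knockouts against controls, same-numbered libraries deviated together from their group means over all genes (correlations 0.307, 0.310 and 0.108), but no label pairs them. Library 1 stood apart in both groups. Its chi-square per gene against libraries 2 and 3 was 55.6 and 50.8 in controls and 262 and 341 in double knockouts. Between libraries 2 and 3 it was 6.68 and 14.1. Whether the numbers mark pairs is therefore not settled, and values above come from fits without the block unless stated. The other comparisons share only a number. Promoters came from RefSeq (GRCm38.p6), and tables were joined by symbol. Python 3.11.15, pandas 2.3.3 and matplotlib 3.10.9 were used.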

Additional observations from a re-analysis of the deposited data

Results flagged for a closer look

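The knockout effect on 2 members differed between iWAT tables by a test of the difference itself (edgeR interaction, adjusted over all genes). For Mid1ip1 the log2 effect of Runx1 knockout was lower by 1.48 under HFD than in the other Runx1 table (HFD minus other, -1.48, adjusted p = 0.0096), and the Runx2 knockout effect was lower than the Runx1 effect (Runx2 minus Runx1, -1.77, adjusted p = 0.0066). Mid1ip1 kept both calls with any single library left out. For Lpin1 the Runx2 effect was higher than the Runx1 effect (Runx2 minus Runx1, 2.56, adjusted p = 0.023), a call lost without any of 4 libraries. Table and condition cannot be told apart in these tests.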

How the results depend on the processing

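Scaling by DESeq2 size factors or dropping the count filter left every arm count within 1.5 times its value. The DESeq2 test called 4 fatty acid members in Runx1 knockout cultures, 1 in Runx2 knockout cultures, 6 in Runx2 knockout iWAT, 4 sterol members in double knockouts, 1 in each iWAT knockout (not HFD), 12 and 12 members in double against Runx1 and Runx2 knockouts, and 2 and 4 in the HFD and Runx2 differences. Of all genes it called 1.62% and 1.45% in Runx1 and Runx2 knockout cultures and 22.2% in double knockouts. In Runx1 and Runx2 knockout iWAT it called 14.4% and 6.67%. In double against Runx1 and Runx2 knockouts it called 14.1% and 12.4%, and in the HFD and Runx2 differences 7.45% and 6.72%. With the compared groups alone the fatty acid counts were 5 (Runx1 knockout), 2 (Runx2 knockout) and 3 (double), the double knockout sterol count 0, and double against either single knockout 0 and 0. The muscle covariate gave 3 fatty acid members in Runx1 knockout iWAT and 15 fatty acid and 5 sterol members in Runx2 knockout iWAT; without the muscle-rich libraries Runx1 knockout iWAT had 1 sterol member. The replicate block gave 4 fatty acid members in Runx1 knockout iWAT (Srebf1, Acacb, Mlxipl and Dgat2 were lost), where same-numbered libraries share only a number. For the double knockouts, whose pairing no label gives, Lpin1 was the one call lost (log2 -0.78). Elsewhere the block added Stard4 (Runx2 overexpression), Fads2 (IDR) and Sc5d and dropped Nsdhl (Runx2 against Runx1 overexpression) and Sqle (double against Runx2 knockout).

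With each library left out in turn, fatty acid and sterol counts ranged over 14 to 15 and 7 to 10 (Runx1 overexpression), 18 to 20 and 3 to 5 (Runx2 overexpression), 0 to 0 and 0 to 0 (each single knockout culture), 4 to 13 and 0 to 5 (double knockout), 3 to 8 and 0 to 0 (Runx1 knockout iWAT), 0 to 16 and 0 to 9 (Runx2 knockout iWAT), 0 to 2 and 0 to 0 (HFD) and 3 to 11 and 1 to 3 (IDR). Counts of all members ranged over 15 to 24 (Runx2 against Runx1 overexpression), 1 to 18 (double against either single knockout), 1 to 5 (HFD difference) and 1 to 8 (Runx2 difference). The direction reversed, over ranges of -1.69 to 0.46 for Fasn in HFD knockouts (lowest without knockout library 2), -0.38 to 0.32 for Fasn in double against Runx1 knockouts and -0.43 to 0.25 for Thrsp in double against Runx2 knockouts (both reversed without double knockout library 1); the cause was not tested. Low counts limit Scd3 in iWAT and Idi1, at 0 to 54 counts per library; whether the counting lost reads of Idi1 was not tested.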
